A study of Mus musculus with 6 samples.

Results

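The genes described here encode the protein subunits of the cytosolic ribosome in mouse heart, and the comparison is between hearts with ouabain-sensitive and ouabain-resistant Na/K-ATPase α1. They were chosen by name from a table of read counts: protein-coding genes named Rpsa, Rplp0, Rplp1 or Rplp2, or starting with Rpl or Rps and a digit, without the S6 kinase genes (Rps6k) and without Rps19bp1. The rule gave 93 of the 54532 genes in the table and used no measured value. All 77 genes for standard subunits that carry such names were among them, 31 of the small subunit, 43 of the large subunit and 3 of its stalk, and the other 16 were paralogs or carried pseudogene-like names. Fau and Rack1 encode ribosomal proteins under other names and were read separately.

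RNA came from whole hearts of C57BL/6 male mice at 3 months of age, with 3 hearts per genotype. The resistant hearts (α1r/rα2s/s, a1r/ra2s/s in the labels; mice 368, 369 and 370) keep the rodent α1, which binds cardiotonic steroids poorly. The sensitive hearts (α1s/sα2s/s; mice 379, 380 and 381) carry substitutions that make α1 sensitive in every cell of the body, so the difference is not limited to cardiac myocytes. Both genotypes carry the sensitive α2, and no heart was treated. Each library held between 19309312 and 20470065 counts. Log2 fold changes are of sensitive over resistant hearts throughout. Counts per gene do not show the substitutions, so the labels were not checked in this way.

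A cytosolic ribosome joins a small subunit, which reads the messenger RNA, to a large subunit, which forms the peptide bond, and its stalk recruits the factors that drive elongation. Each standard protein is present once per ribosome apart from the stalk proteins P1 and P2, and the genes are transcribed at high levels in nearly all cells. Most of their messenger RNAs start with a run of pyrimidines, the 5′ terminal oligopyrimidine (TOP) motif, through which mTOR and LARP1 set their translation. In the heart, ribosome number rises during hypertrophic growth, and striated muscle uses Rpl3l as a partial replacement for Rpl3. A messenger RNA count does not measure ribosomes or their use.

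Taken gene by gene, no ribosomal protein gene passed the test, although nearly all of them leaned the same way after normalization. Of the 93 genes, 82 had enough counts to be tested, and 0 of these 82 passed edgeR's quasi-likelihood test (adjusted p under 0.05), against 1.44% of all 14866 genes tested (0.78% in the higher direction). The count by DESeq2 was also 0, and the smallest adjusted p in edgeR was 0.192. At an unadjusted p under 0.05 there were 10 genes (all 10 higher in sensitive hearts), or 12.2% of those tested. Of all genes, 14.5% passed that level in either direction and 7.19% in the higher direction. Among genes averaging at least 500 counts, 10 of 77 members (13.0%) were higher at that level. So were 701 of all 5296 genes in that class, and 20.2% of them passed in either direction. The log2 fold change was above 0 in 77 of 82 genes (48.4% of all genes tested), with a median of 0.10, or 7.47% higher, beside a median of −0.01 over all genes.

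How many members lay above 0 depended on how the libraries were scaled. TMM (trimmed mean of M-values), the normalization used throughout, assumes that most genes keep their level. With library totals alone, a setting added after the data were seen, 50 of 82 genes were higher with a median of 0.02. The median over all genes then moved from −0.01 to −0.09, with 31.8% of all genes above 0. The members' median stood 0.11 above that of all genes under both scalings. A change of scaling shifts all genes by nearly the same amount, so this gap could hardly move. The gap was 0.08 with a loess offset on gene length, and between 0.07 (without mouse 381) and 0.14 (without mouse 369). Abundant genes as a class also leaned upward, with 60.8% of the 5296 genes averaging at least 500 counts above 0 and a median of 0.04, and 73 of the 77 ribosomal protein genes in that class were higher. Without mouse 381 the median of the 82 genes was 0.07 and the number at an unadjusted p under 0.05 fell from 10 to 2. That number was also 2 without mouse 368 and 4 without mouse 370, and it was 21 without mouse 369. With all hearts it was 0 with library totals alone, 5 with upper-quartile normalization and 14 with DESeq2.

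**Figure D1:**
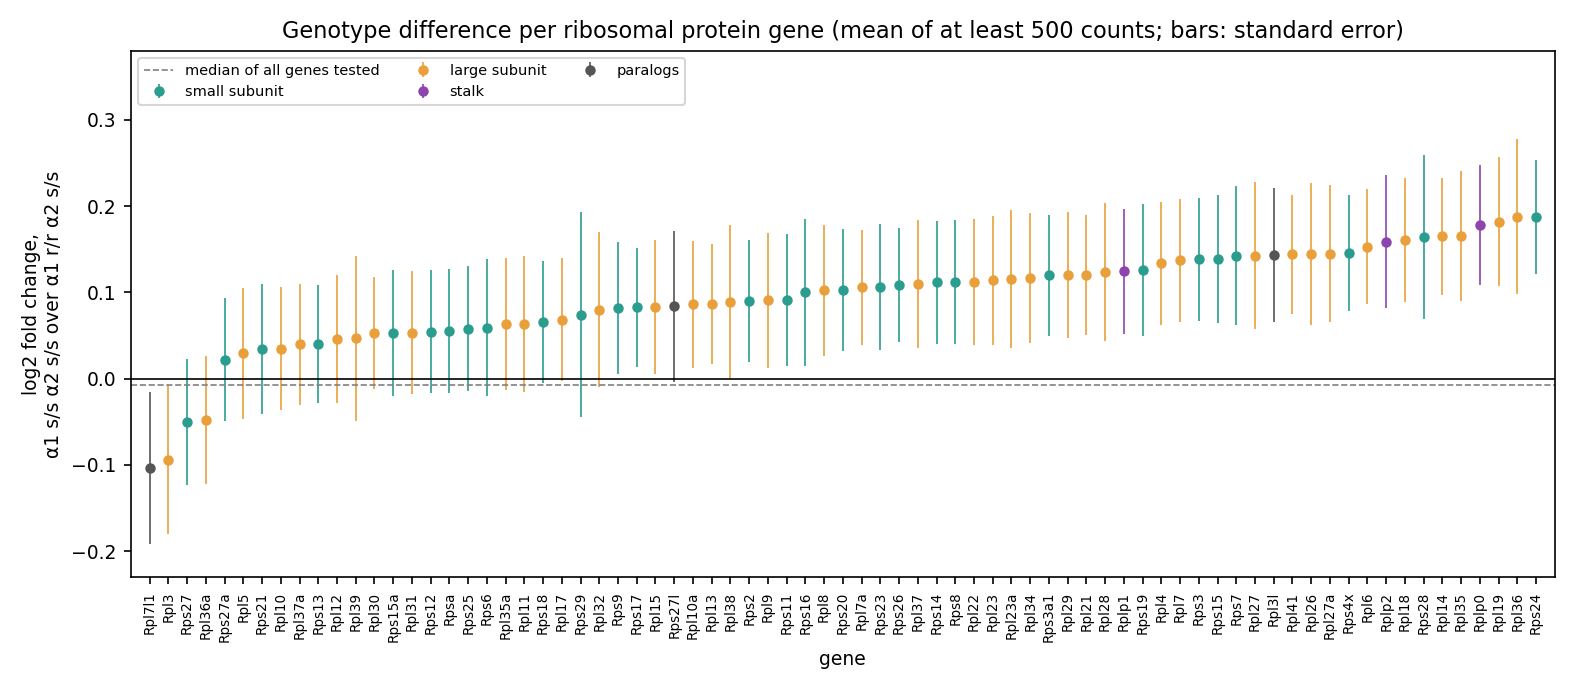
Log2 fold change (y axis, sensitive over resistant hearts, 3 per genotype, bars are standard errors) of 75 ribosomal protein genes averaging at least 500 counts, in rising order and coloured by subunit. All but 4 points lie above 0, between −0.10 (Rpl7l1) and 0.19 (Rps24), and the dashed line at −0.01 is the median of all genes tested.

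Summed over the members, ribosomal protein messenger RNA took up similar parts of the libraries of both genotypes. The share of all counts was 1.25%, 1.35% and 1.17% in resistant hearts 368, 369 and 370, and 1.25%, 1.27% and 1.31% in sensitive hearts 379, 380 and 381. The highest and the lowest heart were both resistant, so the genotypes overlapped completely, and the mean difference was 0.0179 percentage points (1.26% ± 0.0899 against 1.27% ± 0.0301, SD, n = 3 each). Without mouse 370 the difference turned to −0.0247. After TMM normalization the sums were 12061, 12717 and 11868 CPM (counts scaled by library size and TMM factor) in resistant hearts and 12707, 12851 and 13862 CPM in sensitive hearts. Only resistant heart 369 and sensitive heart 379 overlapped on this scale, where sensitive hearts averaged 7.57% more.

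The genotypes also differed in the composition of their libraries. Mitochondrially encoded genes took 23.9%, 23.4% and 24.4% of counts in resistant hearts and 25.01%, 25.3% and 26.0% in sensitive hearts, with no overlap. The TMM factors, of which a higher one lowers a heart's CPM, were 1.04, 1.06 and 0.989 in resistant hearts and 0.985, 0.986 and 0.945 in sensitive hearts, again without overlap. Among counts outside the mitochondrial genome the members' share was 1.64%, 1.76% and 1.55% against 1.67%, 1.69% and 1.77%, and the genotypes overlapped. With the factors computed without the members, 77 of 82 genes were higher. The number was also 77 of 82 in a fit without mitochondrial and globin genes, which tested 14820 genes. Whether the higher TMM-normalized sums come from these shifts was not tested.

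**Figure D2:**
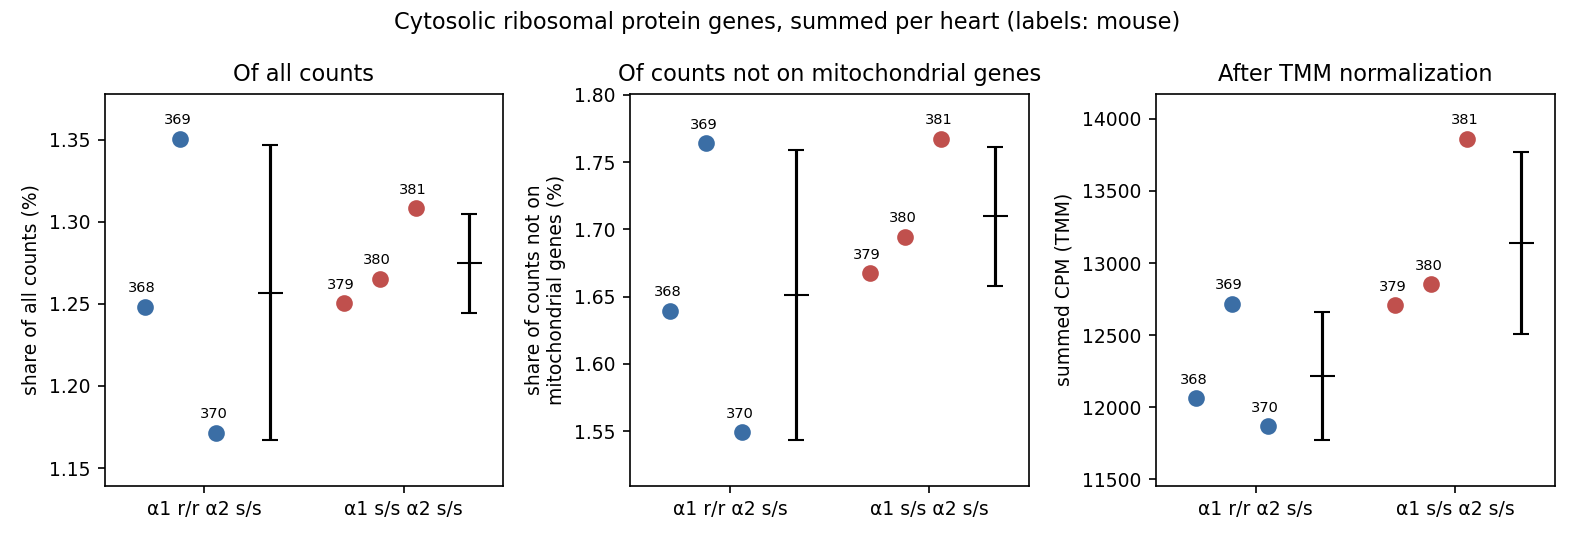
Summed ribosomal protein counts per heart (points, labelled by mouse) with the mean and SD of each genotype (n = 3), as a percent of all counts, as a percent of counts outside the mitochondrial genome, and as TMM-normalized CPM. The y axes do not start at 0. Resistant hearts 369 (1.35%) and 370 (1.17%) bracket all sensitive hearts in the left panel, while in the right panel sensitive heart 381 stands highest at 13862 CPM.

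Single hearts were extreme for most of the genes at once. After TMM normalization, sensitive heart 381 was the highest of the 6 hearts for 58 of the 82 genes, and resistant heart 370 was the lowest for 39 and heart 368 for 29. In plain CPM, resistant heart 369 was the highest for 51 genes and heart 370 the lowest for 58. The mean deviation of the members from their mean over hearts was −0.05 ± 0.07 on the log2 scale in resistant and 0.05 ± 0.06 in sensitive hearts (SD, n = 3 each), and these values overlapped. After TMM normalization, all 3 sensitive hearts lay above all 3 resistant hearts for 17 genes (20.7% of those tested). The share was 10% of all genes and 17.2% of genes averaging at least 500 counts. They lay below the resistant hearts for 0 genes (9.98% of all genes). Not all of the 17 kept this order in plain CPM, where resistant heart 369 was the highest of the 6 for Rpl7a and Rpl30. In these whole hearts, a change in the number of cells of a type and a change in RNA per cell cannot be told apart.

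In the small subunit, 30 of 31 genes had a log2 fold change above 0 (median 0.09), 0 passed the adjusted test and 3 had an unadjusted p under 0.05. Those 3 were all higher in sensitive hearts and made up 9.68% of the 31. Of all genes tested, 14.5% reached that level in either direction and 7.19% in the higher direction. Of genes averaging at least 500 counts, 20.2% reached it in either direction. Rps24, whose mutation causes Diamond-Blackfan anaemia in people, had 224, 229 and 227 CPM in resistant and 247, 263 and 264 CPM in sensitive hearts. The genotypes did not overlap after TMM normalization and the hearts of each genotype lay close together. With a log2 fold change of 0.19 the adjusted p was still 0.192 in edgeR. Rps4x, the X-linked subunit gene, was 265, 261 and 260 CPM against 276, 289 and 305 CPM, also without overlap (log2 fold change 0.15, adjusted p = 0.339 in edgeR). Scaled by library totals alone, the genotypes overlapped for both genes, with resistant heart 369 above sensitive heart 379.

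Other small subunit genes with particular roles stayed closer to 0. Rps6, the target of the S6 kinases, had 166, 186 and 169 CPM in resistant and 163, 185 and 195 CPM in sensitive hearts. The genotypes overlapped almost fully, with a log2 fold change of 0.06 (adjusted p = 0.787 in edgeR). Rpsa, also known as the laminin receptor precursor, differed by 0.05 and Rps27a, made as a fusion with ubiquitin, by 0.02 on the log2 scale. With library totals alone, which lowered all genes, the values of Rps6, Rpsa and Rps27a turned negative. Rps19, the gene most often mutated in Diamond-Blackfan anaemia, was at 83.8 ± 7.04 CPM in resistant and 91.4 ± 3.39 CPM in sensitive hearts (SD, n = 3 each; log2 fold change 0.13, adjusted p = 0.474 in edgeR). Rps27 was the only small subunit gene with a negative value, −0.05, and its hearts overlapped.

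In the large subunit, 40 of 43 genes were above 0 (median 0.11) and 6 had an unadjusted p under 0.05, with 0 past the adjusted test. Those 6 were all higher in sensitive hearts and made up 14.0% of the 43. Of all genes tested, 14.5% reached that level in either direction and 7.19% in the higher direction. Of genes averaging at least 500 counts, 20.2% reached it in either direction. Rpl19, which forms a bridge to the small subunit, had 159, 157 and 163 CPM in resistant and 170, 173 and 200 CPM in sensitive hearts. Sensitive heart 381 lay well above the other hearts and the genotypes did not overlap (log2 fold change 0.18, adjusted p = 0.277 in edgeR). Rpl36 had a similar log2 fold change of 0.19, but resistant heart 369 at 85.3 CPM exceeded sensitive heart 380 at 78.2 CPM. Rpl14, Rpl35, Rpl18 and Rpl6 were also at an unadjusted p under 0.05, with log2 fold changes from 0.15 for Rpl6 to 0.17 for Rpl35. After TMM normalization the genotypes did not overlap in any of these 4, but scaled by library totals alone they overlapped in all 4.

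Rpl5 and Rpl11 bind the 5S ribosomal RNA and, when free of ribosomes, inhibit Mdm2. Rpl5 was 224, 242 and 234 CPM in resistant and 215, 242 and 257 CPM in sensitive hearts. The lowest heart of the 6 was sensitive heart 379 and the highest was sensitive heart 381. The log2 fold change was 0.03 for Rpl5 and 0.06 for Rpl11 (adjusted p = 0.901 and 0.765 in edgeR), and both turned negative without mouse 381. With library totals alone, which lowered all genes, both were negative too.

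The stalk genes were the group furthest from 0, at a median of 0.16 over 3 genes. Rplp0, the base of the stalk, had 487, 486 and 499 CPM in resistant and 529, 546 and 591 CPM in sensitive hearts. The resistant hearts spanned a narrow range and every sensitive heart lay above it (log2 fold change 0.18, 95% interval 0.03 to 0.33, adjusted p = 0.25 in edgeR). Rplp1, the partner of Rplp2 in the flexible arm, had 195, 193 and 173 CPM against 202, 195 and 215 CPM, and resistant heart 368 and sensitive heart 380 were level. Rplp2 was 80.6, 92.7 and 78.9 CPM against 90.5, 93.2 and 97.9 CPM, where resistant heart 369 lay inside the sensitive range. The sum of the 3 genes was 763, 772 and 752 CPM in resistant and 821, 834 and 903 CPM in sensitive hearts, which did not overlap after TMM normalization. Rplp0 made up most of this sum. Scaled by library totals alone, the sums overlapped, with resistant heart 369 above sensitive heart 379.

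The errors show how small a difference these hearts could resolve. For the 74 standard genes averaging at least 500 counts, the standard error of the log2 fold change lay between 0.0648 and 0.119. Over the 77 members in that class, every 95% interval fell between −0.29 and 0.38 on the log2 scale. With 3 hearts per genotype, an exact permutation test of a single gene cannot give a p under 0.1.

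Per kilobase of gene length the levels of the standard genes spanned a wide range. The highest were Rplp1 with 392 CPM per kilobase, Rps15 with 346, Rplp0 with 315, Rps2, at the messenger RNA entry side of the small subunit, with 310.3 and Rps3a1 with 306. The order rests on the length that the table gives for each gene, which joins all annotated exons. With the length of a principal coding transcript in its place, an alternative added after the data were seen, Rps2 came highest at 519 and 4 of these 5 genes stayed among the highest 5. Rps15a was low at 17.2 by the table's length and at 20.9 by transcript length. Rps19 was among the lowest 5 by the table's length, at 18.7, and at rank 58 of 77 with 113 by transcript length. Retained introns and long alternative ends in the annotation enter these lengths, so ranks among genes of similar level carry little weight.

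At the bottom of that order, 3 standard genes had far fewer counts than the others although every ribosome holds their product. Rpl24, a large subunit protein that bridges to the small subunit, had 20, 18 and 12 counts in resistant and 12, 15 and 7 counts in sensitive hearts. Its log2 fold change of −0.47 was the lowest of all members but rested on these few counts (95% interval −1.49 to 0.56). Rps10 had between 36 and 51 counts and Rpl13a between 116 and 188, where the other 74 standard genes averaged at least 500. For Rps10 and Rpl13a the log2 fold change was 0.02 for each, with overlap between genotypes. With library totals alone, which lowered all genes, both were negative.

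The annotation places these 3 genes, and the paralog Rpl36al with 0 to 4 counts, inside another gene. In GENCODE M21 (GRCm38), exons of Gm28037 on the same strand hold 83.4% of the coding bases of Rpl24 (chr16:55966275-55971435), and exons of RPS10-NUDT3 hold 92.1% of those of Rps10 (chr17:27630418-27636669). Gm45713 holds 97.5% for Rpl13a (chr7:45125558-45128761) and Gm49383 holds 95.3% for Rpl36al (chr12:69182731-69184083). Each of these 4 enclosing genes was listed with 0 counts in all 6 hearts. Counting programs such as featureCounts can leave out a read that falls on exons of more than one gene, and the setting used is not given in the sources used here, so the part of this overlap in the low counts was not tested. Only 1 other member had any coding overlap of this kind, Rpl19 with 13.6% inside the microRNA gene Gm27597, and its counts were not low.

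**Figure D3:**
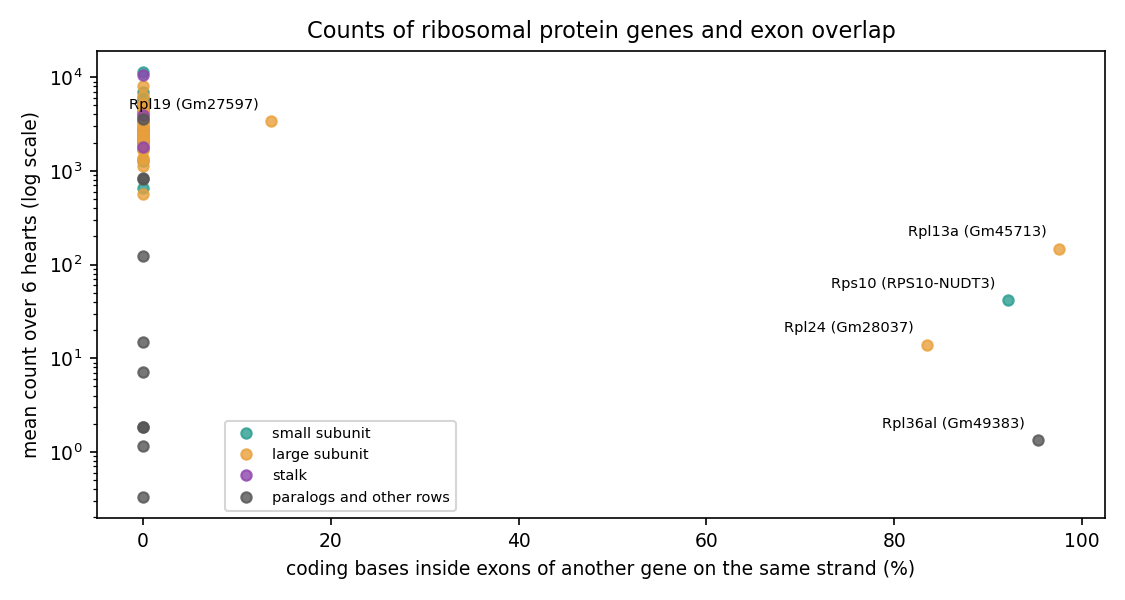
Mean count over 6 hearts (y axis, log scale) against the percent of a gene's coding bases that lie in exons of another gene on the same strand (x axis), for members with any counts, coloured by subunit. The 4 genes at 83.4% or more, named with the enclosing gene, sit far below the 74 standard genes averaging at least 500 counts, which lie at 0 or, for Rpl19, at 13.6%.

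Rpl3l, the paralog of Rpl3 that striated muscle makes, had more CPM than Rpl3 in all hearts but 369. It had 183, 153 and 180 CPM in resistant and 196, 183 and 191 CPM in sensitive hearts, while Rpl3, a protein near the peptidyl transferase centre, had 129, 164 and 133 CPM against 131, 134 and 133 CPM. Resistant heart 369 was the highest of the 6 for Rpl3 and the lowest for Rpl3l, and the other 5 hearts lay close together for Rpl3. Rpl3l made up 58.3%, 47.8% and 57.1% of the pair in resistant and 59.5%, 57.2% and 58.5% in sensitive hearts, counted per length of the principal transcripts. By the gene lengths of the table, Rpl3l made up between 64.3% and 74.3% of the pair, at 110 CPM per kilobase against 43.3 for Rpl3. Between genotypes the log2 fold change was 0.14 for Rpl3l (adjusted p = 0.418 in edgeR) and −0.09 for Rpl3 (adjusted p = 0.665), and without mouse 369 the value for Rpl3 turned to 0.03 and that for Rpl3l was 0.07. The coding sequences of the pair are 74.8% identical and share no run of 50 bases.

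**Figure D4:**
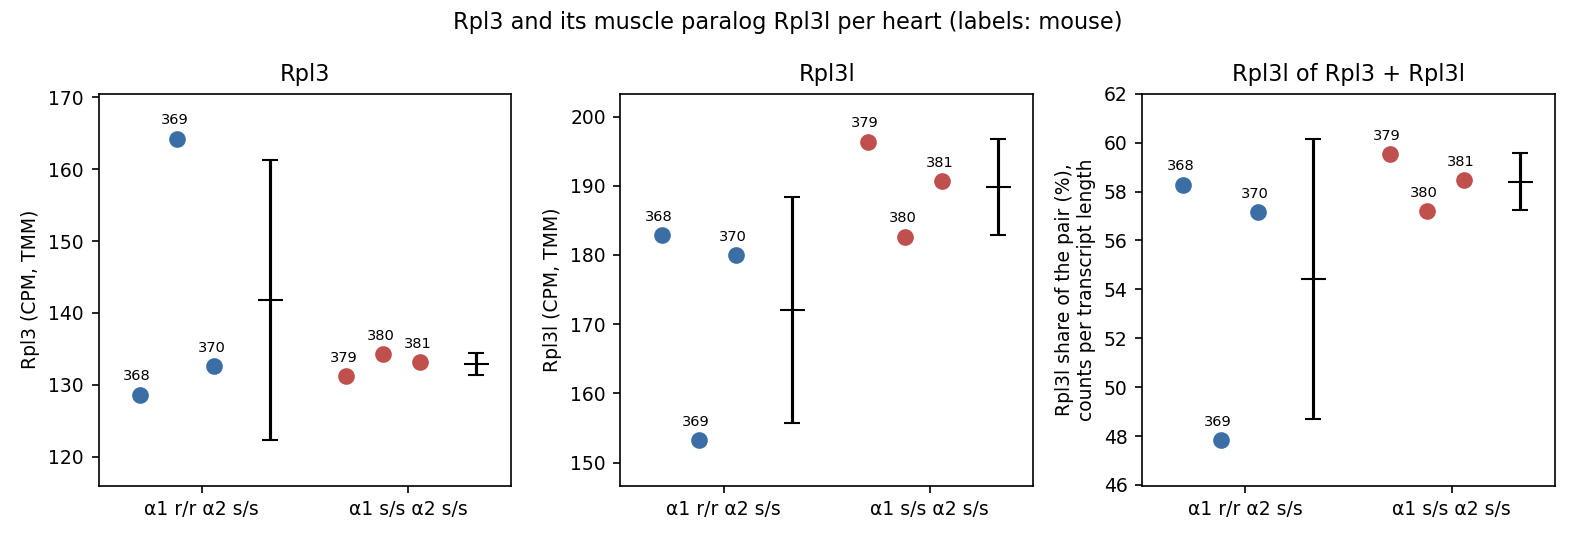
Rpl3 and Rpl3l per heart in TMM-normalized CPM, and the share of Rpl3l in the pair as a percent of counts per transcript length (points, labelled by mouse, with mean and SD, n = 3 per genotype; y axes do not start at 0). Resistant heart 369 stands apart in all 3 panels, with 164 CPM for Rpl3, 153 CPM for Rpl3l and a share of 47.8%, and the other 5 hearts have shares from 57.1% to 59.5%.

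Heart 369 also stood at the edge of the 6 hearts for several lists of cell type markers. It had the lowest sum of cardiomyocyte markers, 55784 CPM, and the highest sums of fibroblast (1392 CPM), endothelial (1582 CPM), atrial (246 CPM), lymphocyte (29.8 CPM) and macrophage markers. The most abundant marker was Fabp4 in the endothelial, Nppa in the atrial and Ptprc in the lymphocyte list. Sensitive heart 379 came close for endothelial markers, at 1560 CPM. For smooth muscle and pericyte markers heart 369 was not the highest, with 982 CPM against 1030 CPM in heart 368. The 9 macrophage markers summed to 614 CPM in heart 369, against 472 and 391 CPM in the other resistant hearts and 429, 411 and 348 CPM in the sensitive hearts, with Lyz2 the most abundant. All 9 had a log2 fold change below 0 between genotypes (median −0.31) and 0 passed the test. The part of these marker sums in the Rpl3 and Rpl3l values of heart 369 was not tested.

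Other paralogs were present at lower levels or not at all. Rps27l, a gene that p53 induces, had 40.1, 44.4 and 36.0 CPM in resistant and 42.5, 42.6 and 42.7 CPM in sensitive hearts, beside 122 ± 8.12 and 118 ± 5.44 CPM for Rps27 (SD, n = 3 each). Both pairs of groups overlapped, and the log2 fold change of Rps27l was 0.08. Rpl22l1, which can replace Rpl22, had 4.37 to 7.94 CPM per heart against 103 to 123 CPM for Rpl22. Rpl7l1, a paralog of Rpl7, had the lowest log2 fold change among members averaging at least 500 counts, −0.10, with 43.1, 44.5 and 42.6 CPM in resistant and 39.0, 36.9 and 45.2 CPM in sensitive hearts. Heart 381 was both sensitive and the highest of the 6 (adjusted p = 0.637 in edgeR). Rpl36a, the X-linked partner of Rpl36al, was at 68.1 ± 3.93 and 65.9 ± 2.39 CPM (SD, n = 3 each; log2 fold change −0.05).

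The testis paralogs Rpl10l and Rpl39l had 0 counts in every heart and 0 or 1 count per heart, respectively, while their broadly used partners Rpl10 and Rpl39 averaged 228 and 27.7 CPM in resistant hearts. A total of 11 members were not tested for too few counts, and 4 of these had 0 counts everywhere, which allows up to 3 counts per library (counting error only). Rps4l, a transcribed pseudogene related to Rps4x and outside the name rule because of its annotated type, had 259, 289 and 303 counts in resistant and 239, 158 and 197 counts in sensitive hearts. The resistant hearts were all higher (log2 fold change −0.44, adjusted p = 0.165 in edgeR).

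Near-identical copies limit what a count of these genes can mean. The coding sequences of Rps27 and Rps27rt, an intronless copy, are identical over all 252 bases, whereas Rps27l differs from them at 60 positions. The first 90 coding bases of each are printed to show this, from the GENCODE M21 transcripts, with capitals where a base differs from Rps27 (chr3:90212522-90213651 on the minus strand, Rps27rt at chr9:114982366-114982739 on the minus strand and Rps27l at chr9:66946086-66949516 on the plus strand).
Rps27: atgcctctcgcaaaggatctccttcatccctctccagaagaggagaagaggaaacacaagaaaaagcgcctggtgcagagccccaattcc
Rps27rt: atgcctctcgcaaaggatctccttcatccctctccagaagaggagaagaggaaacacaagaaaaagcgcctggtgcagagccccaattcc
Rps27l: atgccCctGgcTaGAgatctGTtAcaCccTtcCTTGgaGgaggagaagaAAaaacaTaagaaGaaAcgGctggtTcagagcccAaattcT
Rps27rt had 9 to 21 counts per heart and Rps27 between 2211 and 2712, so its log2 fold change of 0.19 is uncertain both in counting and in which copy the reads came from.

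Such sharing was common across the family. For 38 of the 93 members, over 50% of the 50-base stretches of the principal transcript also occur in transcripts of other genes. Among members with at most 20% shared, 11 of 12 tested genes were above 0 with a median log2 fold change of 0.12, and among those with over 50% shared, 30 of 34 with a median of 0.09. Rows annotated as ribosomal protein pseudogenes summed to 871 to 980 counts per heart, or 0.331% to 0.415% of the members' counts.

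Many of these genes have a run of pyrimidines near their annotated start, a feature that the name rule did not use. RefSeq promoter windows (GRCm38.p6, from 250 bases before to 50 bases after the annotated start) were found for 65 members. A run of at least 8 C or T on the coding strand within 40 bases of the start was present in 49 of the 65 (75.4%), and in 32.6% of all 27025 genes with a window. The motif CCGGAAG, searched on both strands of the whole window, was in 26 of the 65 members and 9.93% of all genes, AAGATGG in 15.4% and 7.28%, and TATAAA in 10.8% and 15.7%. A match describes the letters of the window and is not a measured site, and annotated starts can be off by some bases.

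The following 30-base windows show the run, in capitals, in genes described above: Rps6 as the S6 kinase target, Rplp2 and Rps24 with values toward the high end, Rps27 with a value below 0, and the paralogs Rpl22l1 and Rpl3l.
Rps6 (chr4:86857349-86857378, minus strand): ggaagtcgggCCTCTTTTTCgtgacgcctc
Rplp2 (chr7:141447636-141447665, plus strand): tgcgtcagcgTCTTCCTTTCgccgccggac
Rps24 (chr14:24490664-24490693, plus strand): ccgcgctggggTCCTTCCTTgcgcgttgat
Rps27 (chr3:90213632-90213661, minus strand): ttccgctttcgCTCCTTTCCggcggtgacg
Rpl22l1 (chr3:28805499-28805528, plus strand): cgcaagcccgTTCTCTTCCCacggctgcag
Rpl3l (chr17:24727846-24727875, plus strand): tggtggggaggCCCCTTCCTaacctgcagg
Where a gene has several annotated starts, 1 of them is shown. At the starts shown for Rps6, Rplp2, Rps24 and Rps27 the run begins within 5 bases before the annotated start, and at that of Rpl3l it begins at position 32 after it. At the other annotated start of Rps24 a run of 19 bases begins at position −37, and at the other start of Rpl3l there is no such run. Genes with such a run include Rps24 with a log2 fold change of 0.19 and Rps27 with −0.05.

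Genes that act with the ribosome had list medians from 0.04 to 0.11 in the lists of translation and assembly genes that follow, beside 0.10 for the ribosomal proteins. Some genes are in more than 1 list, such as Eif4b (TOP and initiation) and Eef1d (TOP and elongation), so the medians are not independent. Of 17 other messenger RNAs with a TOP motif, 15 were above 0 (median 0.11) and 0 passed the test, with Eif4b, a helper of the initiation helicase, at 0.25 (adjusted p = 0.0743 in edgeR) and Eef1d, an exchange factor of elongation, at 0.20. Eif4b had 215, 207 and 209 CPM in resistant and 243, 254 and 255 CPM in sensitive hearts, with a clear gap between genotypes. DESeq2 gave it an adjusted p of 0.00281, and with no filter on low counts edgeR gave 0.0417. In edgeR it was 0.188 with library totals alone and 0.097 with upper-quartile normalization. When a heart was left out it lay between 0.109 and 0.206 in edgeR. Of 7 TOP host genes of small nucleolar RNAs 5 were above 0 (median 0.04), with Zfas1 at 0.14 (0.06 to 0.31 when a heart was left out) and Snhg5 at −0.19 (−0.29 to −0.01). Of 3 ribosomal protein genes outside the name rule, 2 were above 0 and 1 below, and 0 passed. Rack1 was at 0.15 (adjusted p = 0.371 in edgeR) and Fau at 0.10 (adjusted p = 0.585).

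Of 84 genes for RNA polymerase I and ribosome assembly, 66 were above 0 (median 0.10) and 0 passed, with the assembly factors Noc2l at 0.29 and Nob1 at 0.38 (0.21 to 0.52 when a heart was left out). Elongation and termination factors were above 0 in 9 of 14 (median 0.06, 0 passed), and Eef1a2, the muscle form of the factor that brings transfer RNA, was at 0.16. Of 53 initiation factor genes tested, 39 were above 0 (median 0.10) and 1 passed. Eif4enif1, a carrier and repressor of the cap-binding protein, rose from 35.4, 35.6 and 37.3 CPM to 43.6, 45.6 and 48.8 CPM (log2 fold change 0.35, adjusted p = 0.0446 in edgeR). That call did not hold without any of the 6 hearts (adjusted p from 0.0687 to 0.171 in edgeR). Mitochondrial ribosomal protein genes, for comparison, were above 0 in 58 of 77 (median 0.05, 0 passed). None of these lists was tested against the ribosomal proteins.

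**Figure D5:**
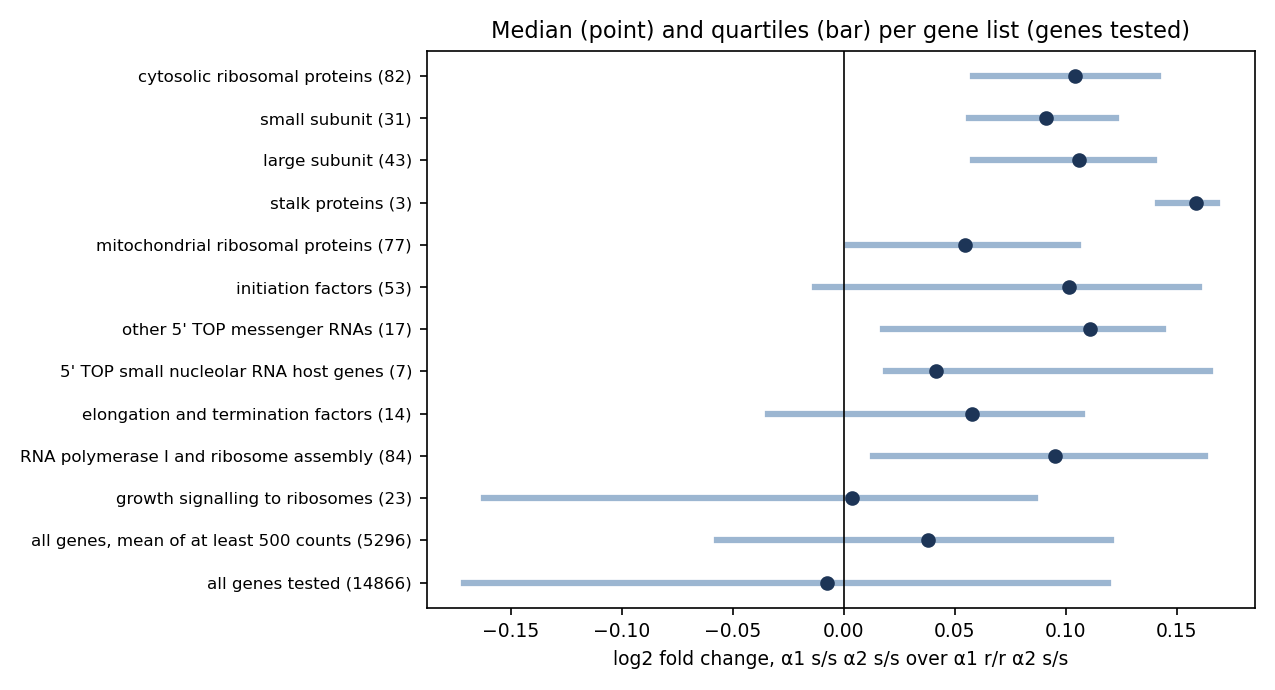
Median (point) and quartiles (bar) of the log2 fold change, sensitive over resistant hearts, for the ribosomal proteins, their groups and related gene lists (number of genes tested in parentheses). The median is 0.10 for the cytosolic ribosomal proteins and initiation factors, 0.05 for mitochondrial ribosomal proteins, 0.04 for all genes averaging at least 500 counts and −0.01 for all genes tested.

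Genes that signal growth to ribosomes were split, with 12 of 23 tested above 0. Mycn, a Myc-family factor that drives ribosome production, was the only gene of this list to pass and fell in sensitive hearts. It had 6.11, 3.73 and 3.42 CPM in resistant and 1.39, 1.47 and 2.39 CPM in sensitive hearts (log2 fold change −1.34, adjusted p = 0.046 in edgeR). The genotypes did not overlap, but the counts are low and the call was lost in 4 of 6 fits that left out a heart (adjusted p up to 0.24 in edgeR), and DESeq2 gave the gene no adjusted p.

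Markers of the heart's cell types were read beside these values, and nearly all of them missed the threshold. The 10 cardiomyocyte markers, led by Myh6, summed to 60579, 55784 and 70014 CPM in resistant and 64096, 62223 and 67432 CPM in sensitive hearts, with 8 above 0 and 0 passing the test, so heart muscle was present as labelled. Below 0 were 9 of 9 macrophage, 7 of 7 smooth muscle and pericyte, 4 of 4 atrial, 5 of 5 tested lymphocyte and 6 of 8 fibroblast markers, and 0 of these passed. Of 8 endothelial markers 5 were below 0 and 3 above, and Fabp4, which fat cells also make, was higher and was the only marker of these lists to pass (log2 fold change 0.39, adjusted p = 0.0358 in edgeR). The fibroblast sums, led by Dcn, were 1292, 1392 and 1184 CPM in resistant and 1230, 1204 and 1064 CPM in sensitive hearts. The 5 erythroid markers, led by Hbb-bs, were all above 0 but ranged from 401 CPM in sensitive heart 381 to 3187 CPM in sensitive heart 380. All 3 tested adipocyte markers were above 0 (median 0.93, 0 passed), with sums led by Cfd of 3.68, 4.49 and 2.66 CPM in resistant and 10.3, 2.95 and 3.27 CPM in sensitive hearts, so only heart 379 stood high. Of 3 tested nerve markers 2 were above 0, and Ucp1 of the adipocyte and Th of the nerve markers had 0 counts in every heart. The part of cell composition in the ribosomal protein values was not tested.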

How the data were processed

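Whole-heart RNA was sequenced by a company on an Illumina platform, and per the submitters' processing notes fastp, STAR, featureCounts and mm10 were used. Versions, strand setting and the treatment of reads with several matches are not given in the sources used here. The authors deposited read counts per gene, without normalization. A deposited table of the authors' own DESeq2 comparison (fold changes and p-values) was not used.

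Counts were tested in R 4.3.3 with edgeR 4.0.16 (TMM, filterByExpr with minimum count 10 and total 15, quasi-likelihood test, Benjamini-Hochberg adjustment over all genes tested, threshold 0.05). Standard errors are the log2 fold change divided by the root of F, and 95% intervals use the fit's degrees of freedom. CPM are TMM-normalized. No pair of hearts agreed within sampling noise. Gene positions, coding overlaps and 50-base words came from GENCODE M21, which has 54495 of the 54532 identifiers. Members, lists and naming rules were chosen with earlier results of these data known. The rule named the 5 largest rises and falls, the 5 highest and lowest levels, paralog pairs, 8 fixed genes, and in each related list the genes past the threshold or the 2 with the smallest p. Rpl6, Rpl14, Rpl18, Rpl35, Fabp4, Gm27597 and the enclosing genes were named after their values were seen. Some single genes are not reported here.

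Alternatives were DESeq2 1.42.0, other normalization factors, other filters, a robust prior, a loess offset on gene length (span 0.3) and leaving out each heart.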

Additional observations from a re-analysis of the deposited data

How the results depend on the processing

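No ribosomal protein gene passed the threshold under any of the 10 alternative settings or the 6 fits that left out a heart, and over 510 such values of the 32 named members 0 passed. DESeq2 gave Rps27rt, Rpl24 and Rps10 no adjusted p, so their values there could not pass. The number of genes called among all tested was 214, and it was 400 with DESeq2, 618 with no filter and 80 to 158 when a heart was left out. With library totals alone 50 of 82 members were above 0 and their median was 0.019. When a heart was left out, 72 to 78 members were above 0, the members' median lay between 0.07 and 0.14, and the difference in their share of counts between −0.0247 (without mouse 370) and 0.0648 percentage points (without mouse 369).

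Library totals alone lowered the median of all genes from −0.01 to −0.09, and with it small positive values turned negative, for Rps10 (−0.061), Rpl13a (−0.061), Rps15a (−0.032), Rpl10 (−0.0504), Rpl39 (−0.038), Rps27l (−0.00224), Rpsa (−0.029), Rps6 (−0.027), Rps27a (−0.064), Rpl5 (−0.056) and Rpl11 (−0.022). Leaving out a heart turned the sign of Rps10 (−0.14 to 0.14), Rpl13a (−0.14 to 0.20), Rpl3 (−0.16 to 0.028), Rpl36a (−0.072 to 0.00438), Rps27rt (−0.035 to 0.55), Rps27a (−0.019 to 0.067), Rpl10 (−0.017 to 0.074), Rpl5 (−0.028 to 0.099) and Rpl11 (−0.00159 to 0.13). Eif4enif1 had an adjusted p between 0.0144 and 0.115 under the 10 settings and between 0.0687 and 0.171 without a heart, and Mycn stayed past the threshold in 2 of 6 fits without a heart and had no adjusted p in DESeq2. The cause of these changes was not tested. No paired analysis was possible because the replicate numbers only name the hearts and the genotypes come from different mice. Rpl24, Rps27rt and Rps10 had at most 20, 21 and 51 counts per heart, and their 95% intervals included 0.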
